A study of Homo sapiens with 4 samples.

Results

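The transcripts of 10 genes of the transforming growth factor-β (TGF-β) family and its brakes were examined in pancreatic cancer cells treated with cannabichromene (CBC), a cannabinoid of the cannabis plant. The set holds the ligand genes GDF15, INHBA, INHBE, BMP2, BMP4, TGFB1 and TGFB2, the genes for the secreted ligand-binding proteins FST and KCP, and SMAD7. They were chosen by symbol, and each matched 1 of the 58233 Ensembl genes in the count table. Both cell lines, MIA PaCa-2 and PANC-1, are long-established lines from human pancreatic tumours, and the labels give both as wild type (WT). Cells of each line received PBS or CBC for 24 h, with CBC at 35 μM for MIA PaCa-2 and 30 μM for PANC-1 cells. CBC was dissolved in acetonitrile, the labels name the control PBS and the methods name it a vehicle, and whether it held acetonitrile is not given in the sources used here. Polyadenylated RNA was sequenced in 1 library per condition, with 21742775 to 27903667 counts per library, so differences within a line have no replicate check.

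Ligands of the TGF-β family are secreted as dimers and bind pairs of receptor kinases, which phosphorylate SMAD proteins that move to the nucleus with SMAD4 and regulate genes. TGF-βs and activins mainly use SMAD2 and SMAD3, and bone morphogenetic proteins (BMPs) mainly use SMAD1, SMAD5 and SMAD9. Secreted proteins that bind the ligands, and the inhibitory SMADs inside the cell, restrain the signal. GDF15 is a distant relative that cells release under stress and that acts on the receptor GFRAL in the hindbrain, while TGF-β itself restrains the growth of many epithelial cells and is often lost as a restraint in pancreatic cancer.

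Across both lines, GDF15, INHBE and KCP rose after CBC treatment, at an adjusted p under 0.05 in edgeR's quasi-likelihood test with Benjamini-Hochberg adjustment over all genes (the rule for a call across both lines), although KCP entered that test through its CBC libraries alone. INHBE was under 1 CPM in both PANC-1 libraries, with a log2 fold change of 1.52 there against 5.39 in MIA PaCa-2 cells. The other members that could be tested did not pass the test, and BMP2, BMP4 and FST were near or at 0 in all 4 libraries. PANC-1 control cells had higher levels of GDF15, TGFB1, TGFB2, SMAD7 and INHBA than MIA PaCa-2 control cells. Of these, TGFB1 alone reached 1 CPM in both control libraries, and the others had to differ to be compared. INHBA, with 23 counts against 0, reached the 1 CPM needed for a call only under some scalings. TGFB2 was past 2-fold lower after CBC in PANC-1 cells. Levels are given below as CPM, a normalised read count on library sizes scaled by the trimmed mean of M-values (TMM), with exact 95% intervals that cover counting error only. In whole cultures, a change in the share of cells that carry a transcript and a change in its amount per cell cannot be told apart.

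**Figure D1:**
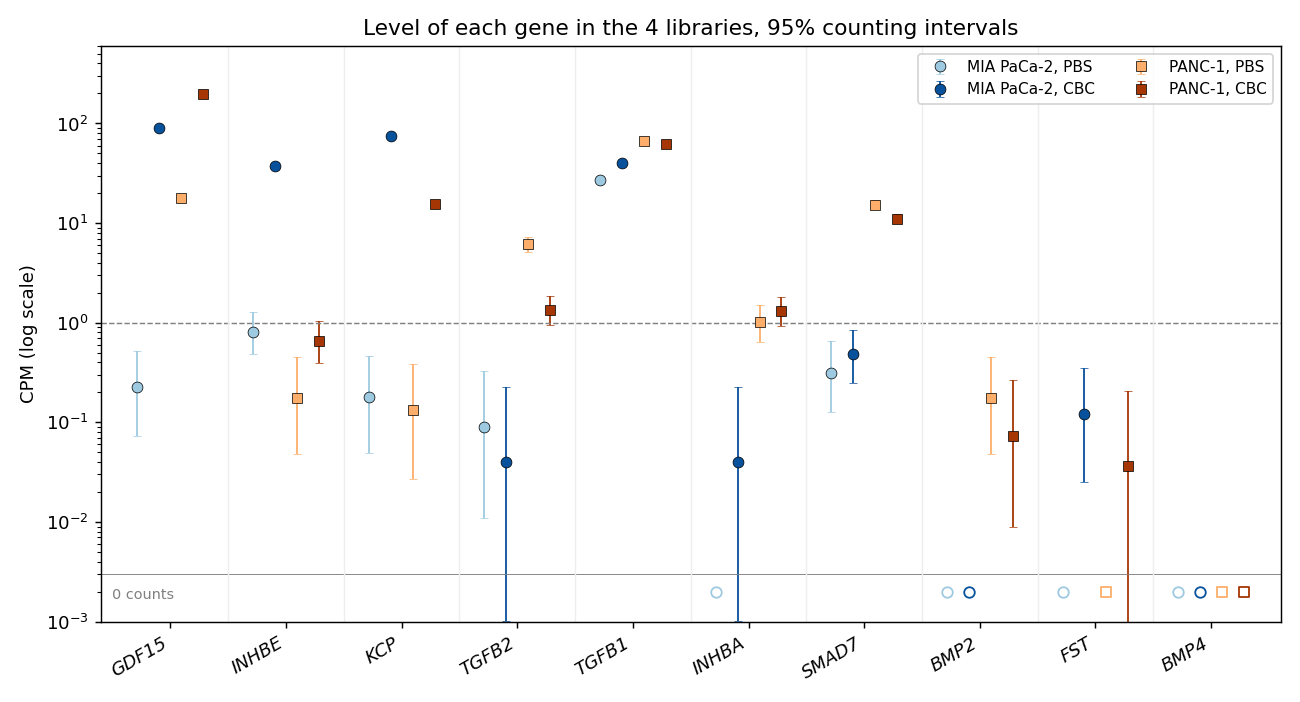
CPM of the 10 genes on a log axis in the 4 libraries, 1 library per point, with exact 95% counting intervals as bars; open symbols in the bottom band mark a count of 0 and the dashed line marks 1 CPM. GDF15 lay at 0.225, 89.8, 17.9 and 198 CPM in the MIA PaCa-2 control, MIA PaCa-2 CBC, PANC-1 control and PANC-1 CBC libraries, while BMP4 had no count in any of them.

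The promoters of GDF15 and KCP are shown because these genes were past 2-fold higher after CBC in both lines. The 250 bases before each start come from RefSeq promoters on GRCh38.p14, read 5′ to 3′ along the strand of the gene. The GDF15 stretch is chr19:18385908-18386157 on the plus strand, and the KCP stretch is chr7:128910710-128910959 on the minus strand. Capitals mark the TATA box letters TATAAA and the GC box letters GGGCGG on either strand, letters that were picked after the sequences had been seen.
GDF15: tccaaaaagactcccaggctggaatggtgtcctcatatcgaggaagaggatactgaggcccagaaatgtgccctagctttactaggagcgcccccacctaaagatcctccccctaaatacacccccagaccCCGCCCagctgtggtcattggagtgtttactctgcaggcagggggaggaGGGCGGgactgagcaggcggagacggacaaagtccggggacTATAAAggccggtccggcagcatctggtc
KCP: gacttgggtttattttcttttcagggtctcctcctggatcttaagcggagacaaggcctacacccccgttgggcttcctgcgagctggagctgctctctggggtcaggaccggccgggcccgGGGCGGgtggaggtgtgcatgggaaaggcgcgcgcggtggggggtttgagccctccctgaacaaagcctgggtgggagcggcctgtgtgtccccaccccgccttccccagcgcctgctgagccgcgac
The GDF15 stretch held 1 TATAAA, which began 29 bases before the start, and 2 GC box matches. The KCP stretch held no TATAAA and 1 GC box match. TATAAA stood in 11.5% and GGGCGG in 45.0% of 35116 RefSeq promoters of 300 bases (250 before and 50 after the start). The bases G and C made up 58.4% of the GDF15 stretch and 66.4% of the KCP stretch, against a median of 58.0% over all promoters. The table held promoters of 8 of the 10 genes, with none for INHBE and BMP2.

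Another 6 motifs were searched on both strands of the 300-base promoters of these 8 genes. No match was found for the CARE core TGATGNAA, a C/EBP-ATF composite site that 3.62% of all promoters held, for the cAMP response element TGACGTCA (1.85%), or for the SMAD palindrome GTCTAGAC (0.202%). The AP-1 site TGANTCA stood in the FST promoter and in 7.71% of all promoters. The antioxidant response element TGACNNNGC, whose letters can overlap those of an AP-1 or CRE match, stood in a SMAD7 promoter and in 13.3% of all promoters. The BMP-response letters GGCGCC stood in a BMP4 promoter and in 19.2% of all promoters. None of the 6 was in the window of GDF15 or KCP, which says only that these letters are not in these 300 bases.

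GDF15 (chromosome 19 of GRCh38, 18374731 to 18389176, plus strand) had 5 counts in control and 2221 counts in CBC-treated MIA PaCa-2 cells, or 0.225 CPM (0.073 to 0.525) and 89.8 CPM (86.1 to 93.6). In PANC-1 cells it had 407 counts in the control and 5400 after CBC, or 17.9 CPM (16.2 to 19.7) and 198 CPM (192 to 203). Both CBC libraries lay above both control libraries, and no neighbouring intervals in the order of the 4 levels overlapped. The CPM ratio of CBC to PBS was 399 (95% interval 171 to 1231) in MIA PaCa-2 and 11 (9.98 to 12.2) in PANC-1 cells. The larger ratio was in the line with the lower control level. Over both lines, the log2 fold change was 5.12 ± 0.93 (SE) with an adjusted p of 0.0275 in edgeR's quasi-likelihood test with Benjamini-Hochberg adjustment, and the direction was up in 2 of 2 lines. The microRNA gene MIR3189 lies inside GDF15 on the same strand and had 0 and 10 counts in the MIA PaCa-2 libraries and 0 and 16 in the PANC-1 libraries.

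INHBE (chromosome 12, 57452323 to 57459280, plus strand) encodes the βE chain of activins and is best known from liver cells. It had 18 and 923 counts in control and CBC-treated MIA PaCa-2 cells, or 0.809 CPM (0.48 to 1.28) and 37.3 CPM (34.9 to 39.8). In PANC-1 cells it had 4 and 18 counts, or 0.176 CPM (0.0479 to 0.45) and 0.659 CPM (0.39 to 1.04). The CBC-treated MIA PaCa-2 library stood alone, and the intervals of each neighbouring pair among the other 3 libraries overlapped. The CPM ratio of CBC to PBS was 46.1 (29.0 to 78.1) in MIA PaCa-2 and 3.74 (1.23 to 15.2) in PANC-1 cells, where both libraries were under the 1 CPM needed for a call. Over both lines the log2 fold change was 4.69 ± 0.81 (SE), up in 2 of 2 lines, with an adjusted p of 0.024 in edgeR's quasi-likelihood test with Benjamini-Hochberg adjustment.

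INHBA (chromosome 7, 41667168 to 41705834, minus strand), the βA chain of activin A, had 0 and 1 counts in the MIA PaCa-2 control and CBC libraries and 23 and 36 in the PANC-1 libraries. In PANC-1 cells this was 1.01 CPM (0.641 to 1.52) and 1.32 CPM (0.923 to 1.82), with overlapping intervals. The CPM ratio of 1.30 in PANC-1 cells had an interval of 0.751 to 2.30. Over both lines the log2 fold change was 0.54 with an adjusted p of 0.763 in edgeR's quasi-likelihood test with Benjamini-Hochberg adjustment, higher in 2 of 2 lines but by 1 count in MIA PaCa-2 cells.

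TGFB1 (chromosome 19, 41301587 to 41353922, minus strand), the main TGF-β of most tissues, was well measured in every library. It had 604 and 985 counts in the MIA PaCa-2 control and CBC libraries, or 27.2 CPM (25.0 to 29.4) and 39.8 CPM (37.4 to 42.4). In the PANC-1 libraries it had 1530 and 1697 counts, or 67.3 CPM (64.0 to 70.7) and 62.1 CPM (59.2 to 65.1). The PANC-1 libraries were both above the MIA PaCa-2 libraries, and their own intervals overlapped. The CPM ratio of CBC to PBS was 1.47 (1.32 to 1.63) in MIA PaCa-2 and 0.923 (0.861 to 0.99) in PANC-1 cells, short of 2-fold in both lines and in opposite directions. Over both lines the log2 fold change was 0.22 with an adjusted p of 0.68 in edgeR's quasi-likelihood test with Benjamini-Hochberg adjustment. HNRNPUL1, CCDC97 and TMEM91 overlap TGFB1 on the other strand, and since the sources used here do not give the strand setting, reads from the overlap may be assigned to either gene or dropped.

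TGFB2 (chromosome 1, 218345336 to 218444619, plus strand) was nearly confined to PANC-1 cells, with 2 and 1 counts in the MIA PaCa-2 control and CBC libraries and 139 and 37 counts in the PANC-1 libraries. In PANC-1 cells the level was 6.11 CPM (5.14 to 7.22) in the control and 1.35 CPM (0.953 to 1.87) after CBC, 4.51-fold lower (3.12 to 6.68) with intervals that did not overlap. No fold is given for MIA PaCa-2 cells, where both counts are within the 3 counts that a count of 0 allows. Over both lines the log2 fold change was -2.03 with an adjusted p of 0.136 in edgeR's quasi-likelihood test with Benjamini-Hochberg adjustment, so a decrease of TGFB2 common to the lines did not pass the test.

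BMP2 (chromosome 20, 6767686 to 6780246) and BMP4 (chromosome 14, 53949736 to 53958761) encode closely related bone morphogenetic proteins. BMP2 had no count in either MIA PaCa-2 library and 4 and 2 counts in the PANC-1 control and CBC libraries. BMP4 had no count in any library, which allows up to 0.110 to 0.135 CPM depending on the library. Neither was detectable at a level that a comparison could use.

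KCP (chromosome 7, 128862042 to 128910719, minus strand) encodes kielin/chordin-like protein, a secreted protein that binds ligands of the family and is known in kidney to favour BMP and to weaken TGF-β and activin signals. It had 4 and 1855 counts in the MIA PaCa-2 control and CBC libraries, or 0.18 CPM (0.049 to 0.461) and 75.0 CPM (71.6 to 78.5). In the PANC-1 libraries it had 3 and 424 counts, or 0.132 CPM (0.0272 to 0.386) and 15.5 CPM (14.1 to 17.1). Both controls were within each other's interval, and both CBC libraries were far above them. The CPM ratio of CBC to PBS was 417 (163 to 1532) in MIA PaCa-2 and 118 (40.0 to 573) in PANC-1 cells, and these intervals overlapped. Over both lines the log2 fold change was 8.01 ± 0.50 (SE), up in 2 of 2 lines, with an adjusted p of 0.00144 in edgeR's quasi-likelihood test with Benjamini-Hochberg adjustment. KCP passed the filter of that test only through its 2 CBC libraries, so a gene at this level had to differ to be tested, and its p is given as a description. ATP6V1F and ATP6V1FNB overlap KCP on the other strand. ATP6V1F, a subunit of the vacuolar proton pump, had 2320 and 4293 counts in the MIA PaCa-2 libraries and 1631 and 2085 in the PANC-1 libraries, beside 4 and 3 counts of KCP in the controls. Whether reads from the overlap were counted to either gene was not tested.

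FST (chromosome 5, 53480626 to 53487134), or follistatin, which traps activins, had 0 and 3 counts in the MIA PaCa-2 control and CBC libraries and 0 and 1 in the PANC-1 libraries. All 4 counts lie within what a count of 0 allows, and no fold is given. SMAD7 (chromosome 18, 48919853 to 48950965, minus strand), the inhibitory SMAD that TGF-β itself induces, had 7 and 12 counts in the MIA PaCa-2 libraries and 348 and 304 in the PANC-1 libraries. In PANC-1 cells this was 15.3 CPM (13.7 to 17.0) in the control and 11.1 CPM (9.91 to 12.4) after CBC, 1.38-fold lower (1.18 to 1.61). The CPM ratio in MIA PaCa-2 cells was 1.54 with an interval of 0.559 to 4.62, and over both lines the log2 fold change was -0.13 with an adjusted p of 0.911 in edgeR's quasi-likelihood test with Benjamini-Hochberg adjustment.

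**Figure D2:**
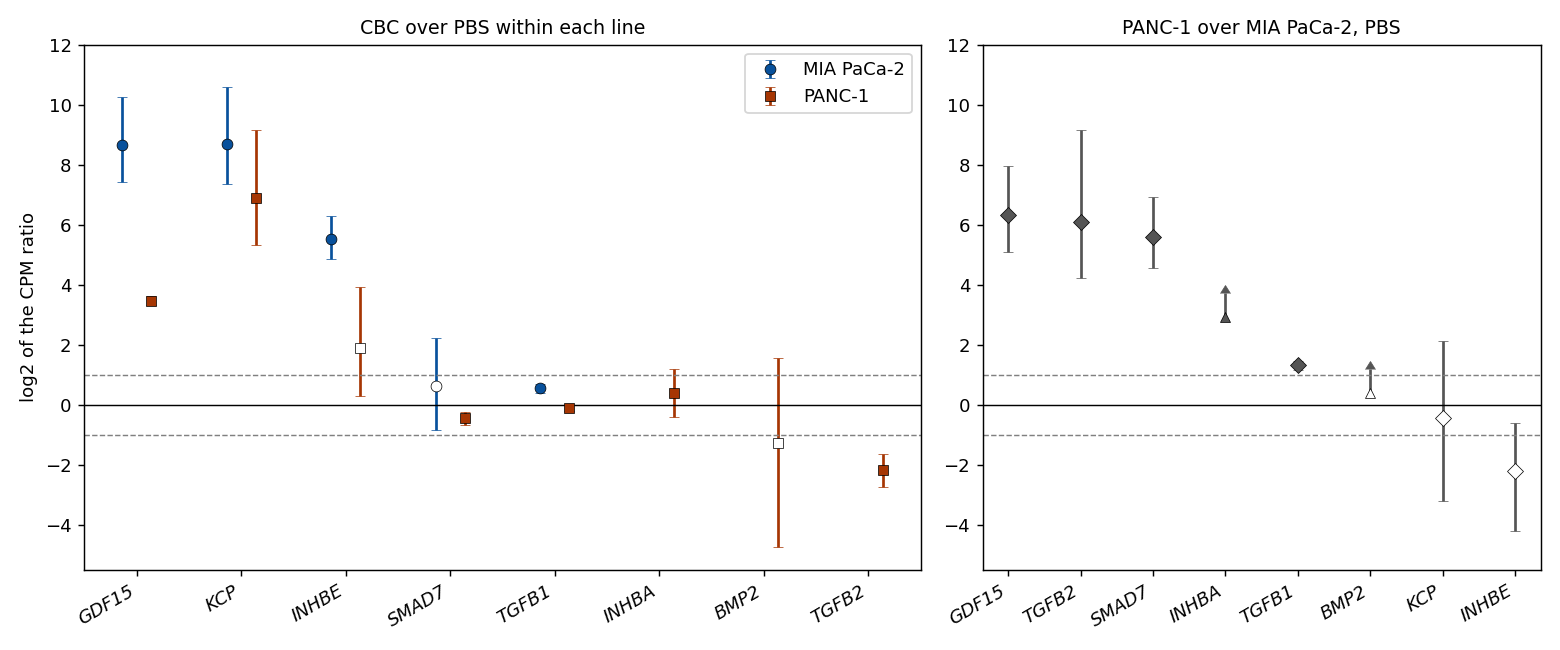
Log2 of the CPM ratio with exact 95% counting intervals, for CBC over PBS in each line (left) and for PANC-1 over MIA PaCa-2 control cells (right); open symbols mark genes under 1 CPM in both libraries, triangles with arrows are lower bounds against 3 counts, and dashed lines mark 2-fold. GDF15 and KCP were above the upper dashed line in both lines, and the GDF15 intervals of the lines, 171 to 1231 and 9.98 to 12.2 as ratios, did not overlap.

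Counted by the call used within a line, a log2 fold change past 1 in either direction for genes that reached 1 CPM in either library (edgeR, prior count 2), 4 of the 10 genes could be called in MIA PaCa-2 cells. After CBC 3 were higher, GDF15 with a log2 fold change of 8.19, KCP with 8.16 and INHBE with 5.39. Of all 14001 genes tested in that line, 11.5% were higher and 8.97% were lower. The 3 genes reached 1 CPM only in the CBC library, so they had to differ to be tested, and their count is no support for a difference. In PANC-1 cells 6 of the 10 could be called, with KCP (6.19) and GDF15 (3.46) higher and TGFB2 (-2.11) lower, beside 7.71% higher and 7.03% lower of 14091 genes. KCP reached 1 CPM only in the CBC library there as well, while GDF15 and TGFB2 did so in both. In the test across both lines, 7 of the 10 were kept, BMP2, BMP4 and FST were dropped for low counts, and 3 were called higher and 0 lower, beside 2.26% higher and 2.45% lower of all 16381 genes. Of the 3, KCP had to differ to be kept. With the cell line left out of the fit, no member was called. Whether the lines differed in their response could not be tested, since a fit with such a term leaves no residual degrees of freedom.

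The lines were also compared at baseline. At least 1 CPM in 1 of the 2 control libraries was reached by 5 of the 10 genes, and all 5 were past 2-fold higher in PANC-1 cells, beside 24.0% higher and 18.0% lower of all 14805 genes. The CPM ratio of PANC-1 to MIA PaCa-2 control cells was 79.6 (33.8 to 247) for GDF15, 68.0 (18.5 to 567) for TGFB2, 48.6 (23.3 to 122) for SMAD7 and 2.48 (2.25 to 2.73) for TGFB1. INHBA was at least 7.50-fold higher, against the 3 counts that its count of 0 in MIA PaCa-2 cells allows. Of these, TGFB1 alone had 1 CPM in both libraries, and the other 4 had to differ to be tested. INHBE went the other way, 4.60-fold lower in PANC-1 control cells (1.52 to 18.7) with both libraries under 1 CPM, and the KCP controls had a ratio of 0.734 (0.107 to 4.34). With 1 library per line, the line and the library cannot be told apart.

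Levels of different genes were compared as CPM per kb of exon. The length joined all annotated exons of a gene and need not be that of the transcript expressed, so close ranks depend on it. In MIA PaCa-2 control cells, AMH, the anti-Müllerian hormone, led the 33 ligand genes with 14.9 CPM per kb and TGFB1 followed with 8.32. After CBC, GDF15 led with 43.0 CPM per kb, 46.8% of the sum over ligand genes, followed by AMH (12.3), INHBE (12.3) and TGFB1 (12.2), which were alike. In PANC-1 control cells BMP6, a BMP that regulates iron through hepcidin, led with 28.0 CPM per kb, TGFB1 had 20.6 and GDF15 had 8.58. After CBC in PANC-1 cells GDF15 led with 94.7 CPM per kb, 52.0% of the sum, and BMP6 had 57.6. The sum over ligand genes was 34.8 and 92.0 CPM per kb in the MIA PaCa-2 control and CBC libraries and 80.8 and 182 in the PANC-1 libraries. KCP, with a long exon union of 12525 bases, had 5.99 CPM per kb in CBC-treated MIA PaCa-2 cells and 1.24 in CBC-treated PANC-1 cells, so by length it stood below GDF15 in both.

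**Figure D3:**
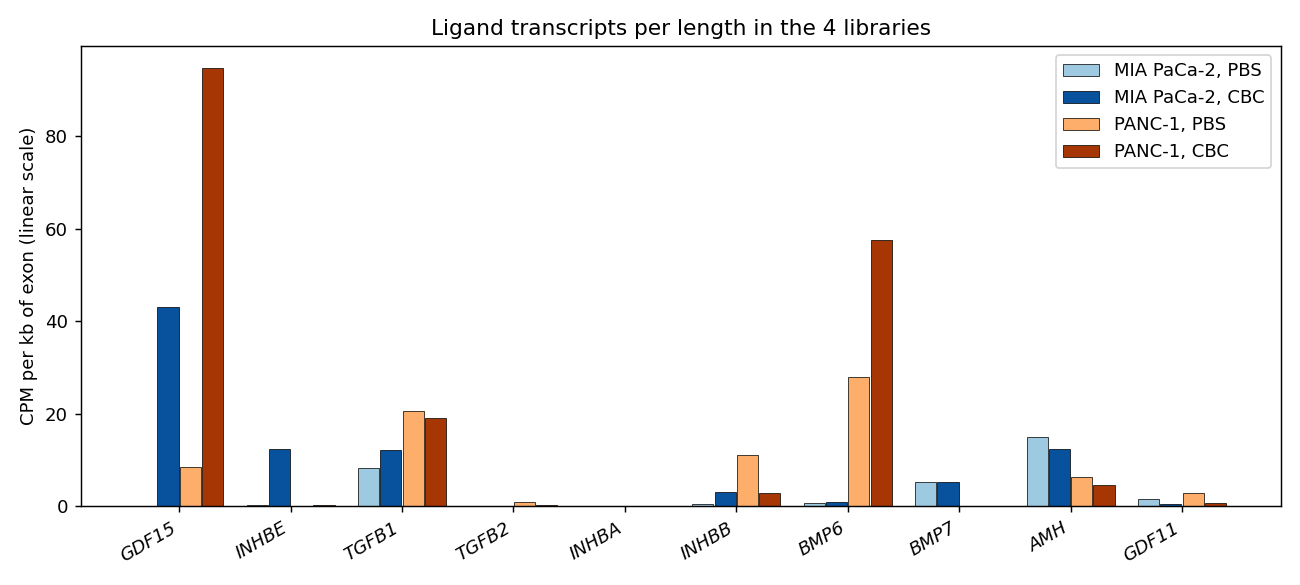
CPM per kb of exon on a linear axis for 10 ligand genes in the 4 libraries, 1 bar per library and no error bar since each condition had 1 library. GDF15 was the tallest bar in both CBC libraries at 43.0 and 94.7 CPM per kb, and BMP6 and AMH were the tallest in the PANC-1 and MIA PaCa-2 controls.

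By Euclidean distance of centred log2(CPM + 1) over the 4 libraries, the genes most like GDF15 among 10067 others with a mean of at least 10 CPM were HMOX1 (distance 1.54), NUPR1 (1.58), SLFN5 (1.60), LAMP3 (1.87) and RAB39B (1.89). HMOX1, haem oxygenase 1, had 10.6 and 403 CPM in the MIA PaCa-2 control and CBC libraries and 38.8 and 1022 CPM in the PANC-1 libraries. Each of the 5 was higher in the PANC-1 than in the MIA PaCa-2 library of the same treatment, as GDF15 was. Picking genes by likeness to GDF15 favours this order, so it is no separate result. The likeness is over 4 points and is a description.

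Among transcription factors known to act on GDF15 in stressed cells, ATF3, DDIT3, CEBPB and ATF4 rose after CBC across both lines. Of the 7 on the list, 4 were called higher across both lines and 0 lower, beside 2.26% higher and 2.45% lower of all 16381 genes. The median log2 fold change over both lines was 1.90, beside 0.02 for all genes tested. The list was chosen with earlier results of these data known, so this count and median are a description and no separate support. ATF3 had 3.87 and 151 CPM in the MIA PaCa-2 control and CBC libraries and 3.91 and 58.5 CPM in the PANC-1 libraries. Its log2 fold change over both lines was 4.60 ± 0.39 (SE), adjusted p = 0.00449, and that of DDIT3, which encodes CHOP, was 3.74 ± 0.36 (SE), adjusted p = 0.00597, both in edgeR's quasi-likelihood test with Benjamini-Hochberg adjustment. DDIT3 had 8.63 and 187 CPM in the MIA PaCa-2 libraries and 23.4 and 196 CPM in the PANC-1 libraries. CEBPB, a bZIP factor that pairs with ATF4, had 30.2 and 308 CPM in MIA PaCa-2 and 25.2 and 134 CPM in PANC-1 cells (log2 fold change 2.89 over both lines). ATF4, the central factor of the integrated stress response, had 207 and 614 CPM in MIA PaCa-2 and 243 and 469 CPM in PANC-1 cells (log2 fold change 1.27 over both lines). All 4 were higher after CBC in 2 of 2 lines.

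Of 26 other ligand genes, 8 had no count in any library and 10 were in the test across both lines. Beside 2.26% higher and 2.45% lower of all 16381 genes, 0 of the 10 were called higher and 1 lower. That gene was GDF11, a close relative of myostatin, with 14.4 and 4.89 CPM in the MIA PaCa-2 control and CBC libraries and 24.5 and 6.55 CPM in the PANC-1 libraries. GDF11 was lower in 2 of 2 lines, by 2.94-fold (2.38 to 3.66) and 3.75-fold (3.16 to 4.46), with a log2 fold change over both lines of -1.73 ± 0.32 (SE) and an adjusted p of 0.0297 in edgeR's quasi-likelihood test with Benjamini-Hochberg adjustment. INHBB, the activin βB chain, went in opposite directions, from 1.44 to 9.66 CPM in MIA PaCa-2 and from 35.5 to 9.55 CPM in PANC-1 cells, so that the CBC libraries of the lines were alike. INHA, the inhibin α chain, had 30 and 15 counts in MIA PaCa-2 and 16 and 23 in PANC-1 cells. TGFB3 was 2.18-fold lower (1.54 to 3.13) in MIA PaCa-2 and 1.98-fold lower (1.36 to 2.89) in PANC-1 cells, with an adjusted p of 0.239 in edgeR's quasi-likelihood test with Benjamini-Hochberg adjustment. GDF7 had 3 and 27 counts in MIA PaCa-2 and none in PANC-1 cells.

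Of 20 receptor and co-receptor genes, 12 were in the test. Of these 12, 1 was called higher and 0 lower, beside 2.26% higher and 2.45% lower of all 16381 genes. ACVR1, the BMP type I receptor ALK2, had 6.52 and 19.6 CPM in the MIA PaCa-2 control and CBC libraries and 57.6 and 140 CPM in the PANC-1 libraries. It was higher by 3.01-fold (2.49 to 3.65) and 2.42-fold (2.28 to 2.58), with a log2 fold change over both lines of 1.43 ± 0.23 (SE) and an adjusted p of 0.021 in edgeR's quasi-likelihood test with Benjamini-Hochberg adjustment. ACVR2B, an activin type II receptor, had ratios of 2.06 (1.72 to 2.48) and 1.86 (1.58 to 2.19) and an adjusted p of 0.124 in edgeR's quasi-likelihood test with Benjamini-Hochberg adjustment. RGMA, a BMP co-receptor, was 11.9-fold lower (5.16 to 33.5) in MIA PaCa-2 cells and had 1 count in each PANC-1 library. GFRAL, the receptor of GDF15, had no count in any library. TGFBR2, the type II receptor of TGF-β, had 0 and 3 counts in the MIA PaCa-2 libraries against 2464 and 2946 in the PANC-1 libraries, and was named after its values were seen.

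Among 17 other SMAD and intracellular regulator genes, all of them in the test, 0 were called higher and 2 lower in edgeR's quasi-likelihood test, and 1 higher and 3 lower by DESeq2. The edgeR test called 2.26% higher and 2.45% lower of all 16381 genes, and DESeq2 called 617 higher and 753 lower of 28834 genes with a count. The additional calls of DESeq2, named after their values were seen, were TGIF1, a repressor that binds SMADs, and SMAD3. TGIF1 had ratios of 4.46 (4.16 to 4.79) in MIA PaCa-2 and 1.53 (1.45 to 1.62) in PANC-1 cells, with an adjusted p of 0.0765 in edgeR's quasi-likelihood test with Benjamini-Hochberg adjustment. SMAD3 was 1.47-fold lower (1.38 to 1.56) and 1.53-fold lower (1.49 to 1.57). SMAD6, the inhibitory SMAD that acts mainly on BMP signals, had 6.34 and 0.283 CPM in the MIA PaCa-2 control and CBC libraries and 16.6 and 2.09 CPM in the PANC-1 libraries. It was 22.4-fold lower (10.6 to 56.7) and 7.95-fold lower (6.0 to 10.7), and fell by 3.56 on the log2 scale over both lines with an adjusted p of 0.0147 in edgeR's quasi-likelihood test with Benjamini-Hochberg adjustment. SMAD7, its counterpart in TGF-β signalling, did not pass the same test. PMEPA1, a TGF-β target that restrains SMAD activation, was 2.69-fold lower (2.44 to 2.96) in MIA PaCa-2 and 1.74-fold lower (1.65 to 1.82) in PANC-1 cells, with an adjusted p of 0.0423 in edgeR's quasi-likelihood test with Benjamini-Hochberg adjustment. SMAD4, the shared partner of the signalling SMADs, was present in all 4 libraries at 47.0 to 77.1 CPM and had ratios of 0.845 (0.789 to 0.905) and 1.04 (0.96 to 1.13).

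Of 14 target genes of SMAD signalling, 12 were in the test. By edgeR's quasi-likelihood test 0 were called higher and 4 lower, beside 2.26% higher and 2.45% lower of all 16381 genes. DESeq2 called 1 higher and 5 lower, beside 617 higher and 753 lower of 28834 genes with a count. The median log2 fold change over both lines was -0.67, beside 0.02 for all genes. The 4 called lower by edgeR are ID1, ID3, SMAD6 and PMEPA1, of which SMAD6 and PMEPA1 are also in the list of regulators. ID1, a direct BMP target that restrains differentiation factors, had 180 and 93.1 CPM in MIA PaCa-2 and 246 and 122 CPM in PANC-1 cells (log2 fold change over both lines -0.98). ID3 had 218 and 58.9 CPM in MIA PaCa-2 and 78.6 and 43.4 CPM in PANC-1 cells (log2 fold change over both lines -1.37).

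Of 25 other extracellular antagonist and binding protein genes, 14 were in the test and none was called in edgeR's quasi-likelihood test, with 6 at an unadjusted p under 0.05. The same test called 2.26% higher and 2.45% lower of all 16381 genes, with 3428 at an unadjusted p under 0.05. DESeq2 called 1 of the list lower, LTBP3, named after its values were seen, beside 617 higher and 753 lower of 28834 genes with a count. The median log2 fold change over both lines was -0.42, beside 0.02 for all genes, and the 6 (FSTL1, NOG, TWSG1, CRIM1, LTBP3 and THBS1, also named after their values were seen) all had a negative log2 fold change in this test. By the 2-fold rule, 2 of 12 were higher and 3 lower after CBC in MIA PaCa-2 cells, beside 11.5% higher and 8.97% lower of all 14001 genes. Of the 3 lower, FSTL1 lay at the threshold, with a log2 fold change of -1.02 to -0.94 depending on the scaling. For PANC-1 cells 0 of 13 were higher and 1 was lower, THBS1 at 5.28-fold (4.15 to 6.79), beside 7.71% and 7.03% of 14091 genes. The 2 genes that the rule of largest mean change named were on the higher side. LTBP1, which holds latent TGF-β in the matrix, had 8 and 86 counts in MIA PaCa-2 cells, a ratio of 9.66 (4.69 to 23.1), and 2339 and 3227 counts in PANC-1 cells, a ratio of 1.15 (1.09 to 1.21). CHRD, the BMP antagonist chordin and a relative of KCP, had ratios of 3.62 (2.78 to 4.78) and 1.13 (0.537 to 2.43). Of 7 processing protease genes, which release mature ligands, 5 were in the test and none was called by edgeR's quasi-likelihood test or by DESeq2, with 0 at an unadjusted p under 0.05 in the former.

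**Figure D4:**
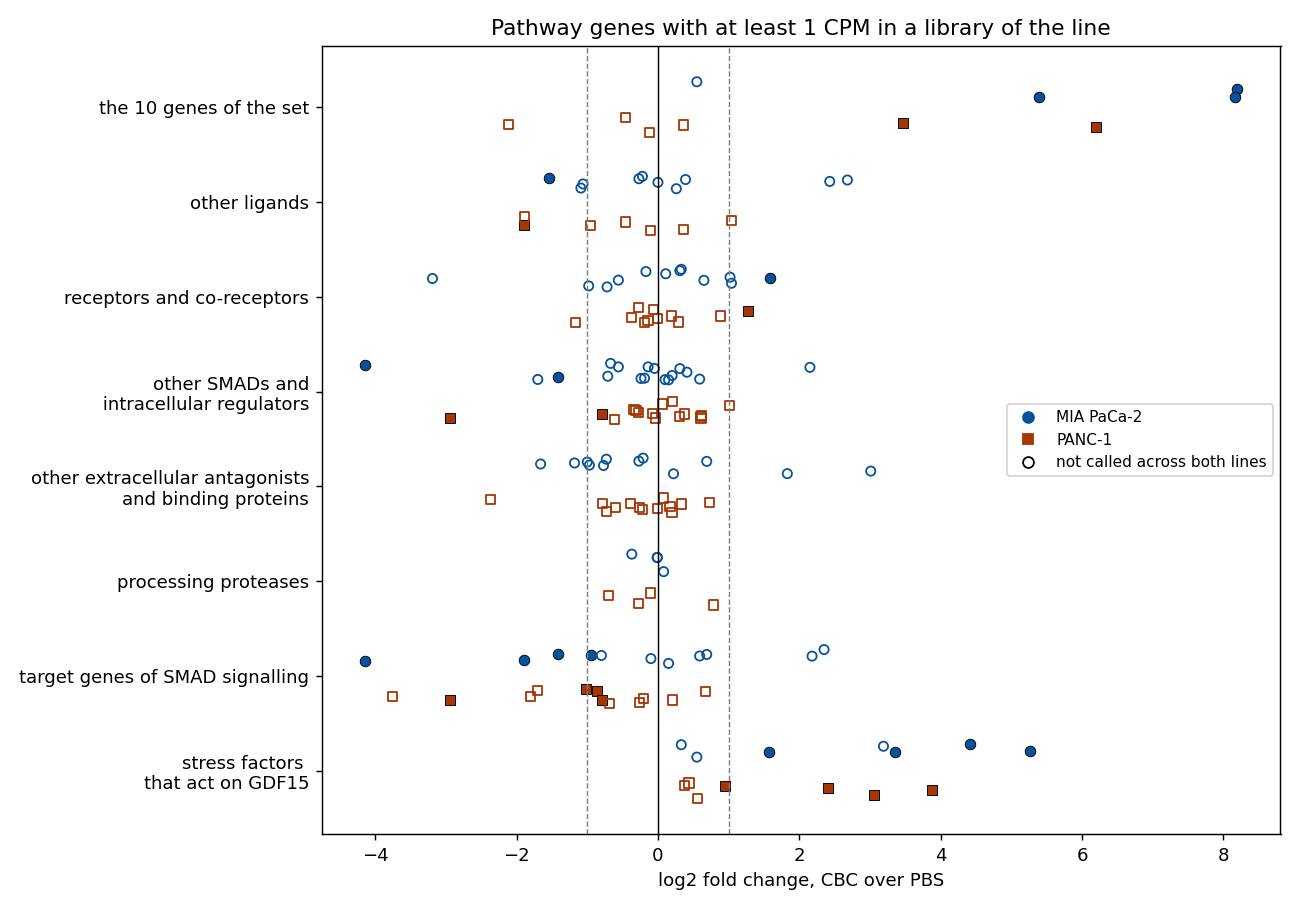
Log2 fold change of CBC over PBS for each gene with at least 1 CPM in a library of the line, grouped by role (circles, MIA PaCa-2; squares, PANC-1); filled symbols are genes called across both lines and dashed lines mark 2-fold. The stress factors were all to the right of 0 in both lines, while the 4 called SMAD targets were to the left in both.

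**Figure D5:**
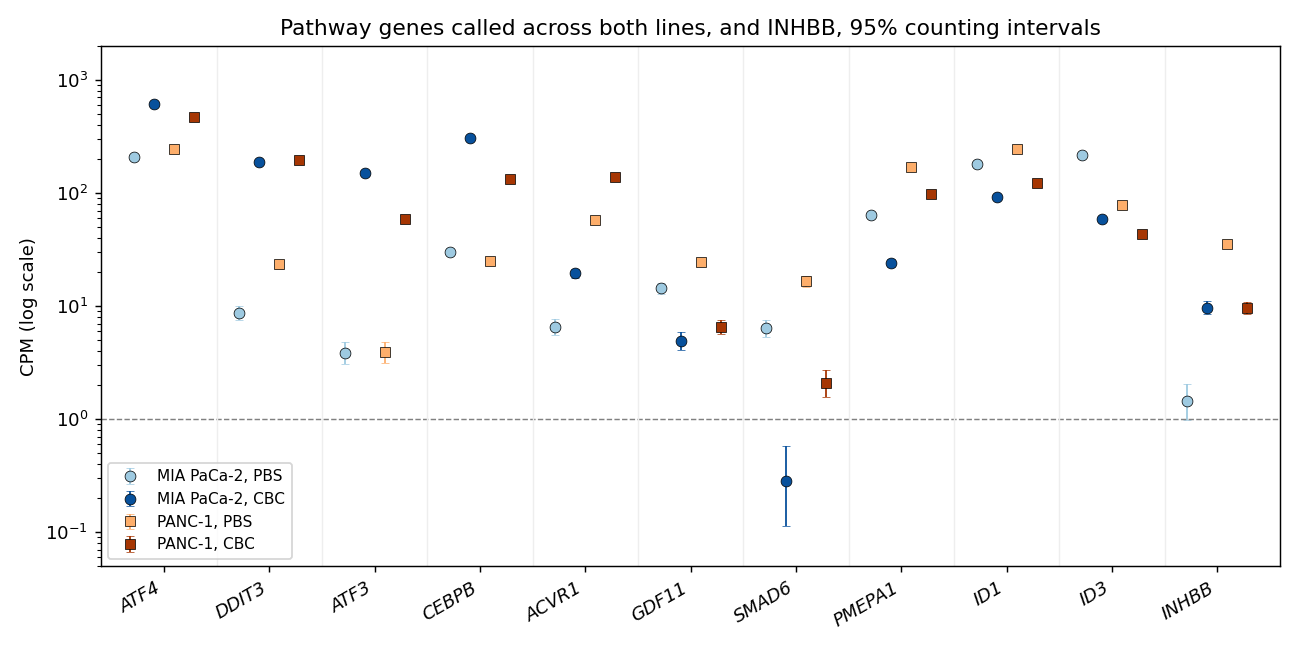
CPM on a log axis in the 4 libraries, with exact 95% counting intervals, for the 10 listed pathway genes called across both lines and for INHBB. The 4 stress factors and ACVR1 were higher after CBC in both lines and GDF11, SMAD6, PMEPA1, ID1 and ID3 lower, while the INHBB libraries after CBC met at 9.66 and 9.55 CPM.

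Markers of the cell type were read beside these results. The keratin KRT8, an epithelial marker, was at 1801 and 1251 CPM in the MIA PaCa-2 control and CBC libraries and at 604 and 276 CPM in the PANC-1 libraries. KRT18 and KRT19 were likewise lower in the CBC library of each line. None of the 6 epithelial markers was called across both lines in edgeR's quasi-likelihood test, beside 2.26% higher and 2.45% lower of all 16381 genes. At an unadjusted p under 0.05 in that test were 3 of the 6, beside 3428 of all genes. DESeq2 called 2 lower (KRT8 and KRT19), beside 753 lower of 28834 genes with a count. KRT7, CDH1 and EPCAM did not share the lower direction of these keratins in both lines. KRT7 had 2 and 52 counts in MIA PaCa-2 and 49 and 58 in PANC-1 cells, and CDH1 had none in MIA PaCa-2 cells and went from 1.41 to 4.79 CPM in PANC-1 cells. EPCAM had 0 and 1 counts in MIA PaCa-2 cells and was at 11.6 and 9.15 CPM in PANC-1 cells. The summed level of 8 markers of other cell types was 0.54 and 1.58 CPM in MIA PaCa-2 cells, with PTPRC, PECAM1 and INS at 0 in all 4 libraries. In PANC-1 cells the sum was 137 CPM in the control and 47.9 after CBC, nearly all of it the collagen gene COL1A1 at 134 and 46.4 CPM, which moved in the same direction as TGFB2, and its part in that difference was not tested.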

How the data were processed

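Polyadenylated RNA of 4 cultures was sequenced. Reads were trimmed with cutadapt 2.7 and aligned with STAR to GRCh38, and the authors deposited the raw counts that HTSeq gave per Ensembl gene. The versions of STAR and HTSeq and the strand setting are not given in the sources used here. A normalized signal was deposited for each library as well, which equals CPM on TMM-scaled library sizes and served only as an alternative.

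Symbols, positions and exon lengths came from GENCODE release 44. Of 58233 identifiers, 57392 matched a symbol. Fold changes were computed with edgeR 4.0.16 under R 4.3.3, with TMM over 4 libraries and a prior count of 2. Intervals of ratios are exact binomial (Clopper-Pearson, scipy 1.17.1), a count of 0 allows 3 counts, and both cover counting error only. The effect of CBC was tested by edgeR's quasi-likelihood test, blocked on cell line (1 residual degree of freedom), on genes kept by edgeR's filter, with Benjamini-Hochberg adjustment over all of them at 0.05; the test was run on simulated data first. The p-values rest on the spread of the response between 2 lines, which edgeR estimates with information pooled over all genes in the test. They therefore do not measure a gene's own spread between the lines alone. The lines pair the libraries, and same-line deviations from the treatment means correlated across genes (0.923).

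The genes and lists were chosen with earlier results of these data known. From each list, the text names up to 4 genes called across both lines and, with fewer than 2 such genes, up to 2 past 2-fold in 1 line by mean change, besides SMAD4, GFRAL, INHBB, INHA, ATF4, DDIT3 and ATF3. Alternatives changed the scaling, filter, prior count, values, block and tool (DESeq2 1.42.0). Values of 2 listed genes are not reported here.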

Additional observations from a re-analysis of the deposited data

Results flagged for a closer look

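Among the named genes, 2 had counting intervals on opposite sides of a ratio of 1 in the lines. INHBB was higher by 2.68 on the log2 scale in MIA PaCa-2 and at -1.89 in PANC-1 cells, a difference of 4.57. TGFB1 was higher by 0.55 in MIA PaCa-2 and at -0.12 in PANC-1 cells, a difference of 0.67 on the same scale, with neither change past 2-fold. Neither difference between the lines was tested, since each condition had 1 library.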

How the results depend on the processing

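The 3 members called across both lines, GDF15, INHBE and KCP, were called in edgeR's quasi-likelihood test with DESeq2 size factors, with library totals and with no filter on low counts, and by DESeq2 with the block. Without the replicate block for cell line, 0 members and 0 of 16381 genes were called, with 354 genes at an unadjusted p under 0.05, and the adjusted p of each of the 3 was 1. Of all genes, 771 were called with the block, 1370 by DESeq2 and 2063 with no filter. Requiring 1 CPM in both libraries left 0 members past 2-fold in MIA PaCa-2 cells and 1 between the lines at baseline (TGFB1). The calls among all genes were then 3594 at baseline against 6207, and with no filter they were 5816 against 2864 in MIA PaCa-2 cells, 4847 against 2078 in PANC-1 cells and 10878 at baseline. Library totals moved the median log2 fold change at baseline from 0.10 to -0.04 and took INHBA out of the baseline calls, as TMM over the 2 libraries did. For single members, 125 of 140 recomputed values were within the counting interval or on the same side of the threshold, 12 moved and 0 reversed. Scaling moved 2 calls named in the text across the 2-fold line in PANC-1 cells, ID1 (log2 fold change -1.04 to -0.95) and ATF4 (0.92 to 1.02). Leaving out 1 library was not run, since it leaves no residual degrees of freedom. A level below the 0.110 to 0.135 CPM that 3 counts give was not detectable at this depth.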
